A study of Mus musculus with 8 samples.

Results

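The genes described here encode the receptors through which vessel lining cells respond to vascular endothelial growth factors (VEGFs) and angiopoietins, with close partners of both. The list held 9 genes, taken by symbol from the 24454 gene rows of the deposited table. Kdr, Flt1 and Flt4 encode the VEGF receptors, Tek and Tie1 the angiopoietin receptor pair, and Nrp1 and Nrp2 the neuropilin co-receptors. The list also holds 2 genes that do not encode receptors for these ligands. Ptprb encodes a receptor-type phosphatase that acts on Tek, and Angpt2 encodes a ligand of Tek.

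The cells came from the yolk sac of mouse embryos at stage E11.5 and were collected in 8 pools. All embryos were C57BL/6 and carried the miR144-451+/GFP genotype, with 1 copy of the green fluorescent protein (GFP) allele, so the allele was shared by all 3 populations. Sorting used GFP and an antibody to VE-Cadherin, the endothelial junction protein encoded by Cdh5. The double positive pools (replicates 7 and 8) held 24 VE-Cadherin+ GFP+ cells each. The erythroid pools (replicates 4 to 6) held 25 VE-Cadherin- GFP+ cells each, and the endothelial pools (replicates 1 to 3) held 25 VE-Cadherin+ GFP- cells each. The labels do not say whether pools came from separate embryos, and the p-values therefore describe differences among pools that may be technical replicates.

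VEGF receptors and Tie receptors are tyrosine kinases in the cell membrane of endothelial cells. Kdr carries most of the VEGF-A signal for growth and survival, Flt1 binds the same ligand tightly and limits its action, and Flt4 responds mainly to VEGF-C. Tek is held active by angiopoietin 1 and keeps vessels stable, and Tie1 has no widely accepted high-affinity angiopoietin and modulates Tek. In the yolk sac, mice without Kdr fail to form both blood islands and vessels. Some macrophages are known to make Flt1, Nrp1 and Tek as well.

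Total counts were 4637930 and 4818074 in the double positive libraries, 5291843 to 7618444 in the erythroid libraries and 3723128 to 4439165 in the endothelial libraries. Levels are normalised read counts (CPM), with library sizes adjusted by TMM (trimmed mean of M values), which raises erythroid values above a plain share of the library. Cdh5, the sorted protein's gene, stood at 51.0 ± 7.19 CPM in double positive (SD, n = 2), at 0 in all erythroid and at 209 ± 32.0 CPM in endothelial libraries (SD, n = 3). The 10 endothelial markers summed to 471 and 629 CPM in double positive, 1.96 to 9.09 CPM in erythroid and 2589 to 3885 CPM in endothelial libraries. The double positive libraries also held transcripts of other lineages. Their 8 visceral endoderm markers summed to 82280 and 82940 CPM, against 9.46 to 20.0 CPM in erythroid and 22.9 to 36.5 CPM in endothelial libraries, where Hnf4a and Foxa2 were at 0. Their 8 erythroid markers summed to 78800 and 137600 CPM, against 947700 to 1010000 CPM in erythroid and 21.8 to 48.1 CPM in endothelial libraries, where Gata1 and Klf1 were at 0. Almost all of the double positive sum came from the globin genes Hbb-y, Hba-x and Hbb-bh1. In double positive against endothelial libraries, 7 of the 8 markers were higher (adjusted p under 0.05, edgeR). Epor was not, at 10.1 and 10.4 CPM in double positive and 6.48, 12.9 and 23.6 CPM in endothelial libraries. The 10 mesenchyme and mural markers summed to 308 and 365 CPM in double positive, at most 0.466 CPM in erythroid and 10.1 to 14.2 CPM in endothelial libraries. Of 7 tested, 5 were higher in double positive than in endothelial libraries (Col1a1, Col1a2, Col3a1, Dcn and Lum). Acta2 and Rgs5 were not called. Rgs5 stood at 0.765 and 1.43 CPM in double positive and at 3.04, 0 and 2.42 CPM in endothelial libraries.

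The receptor genes were high in endothelial libraries, low in double positive libraries and almost without reads in erythroid libraries. In double positive against endothelial libraries, 8 of the 9 genes fell, at a Benjamini-Hochberg adjusted p under 0.05 in edgeR's quasi-likelihood test over 12136 genes. Of all those genes, 6.92% were lower and 21.6% differed in either direction. Those 8 genes stood at 10.2% to 21.4% of their endothelial level, a drop of 4.68-fold to 9.77-fold. The median log2 change over the 9 genes was −2.83, against 0.06 over all genes tested. Angpt2 was the exception, at 62.6% of its endothelial level with overlapping libraries. In pools of sorted cells, fewer cells of a type and less RNA per cell cannot be told apart.

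**Figure D1:**
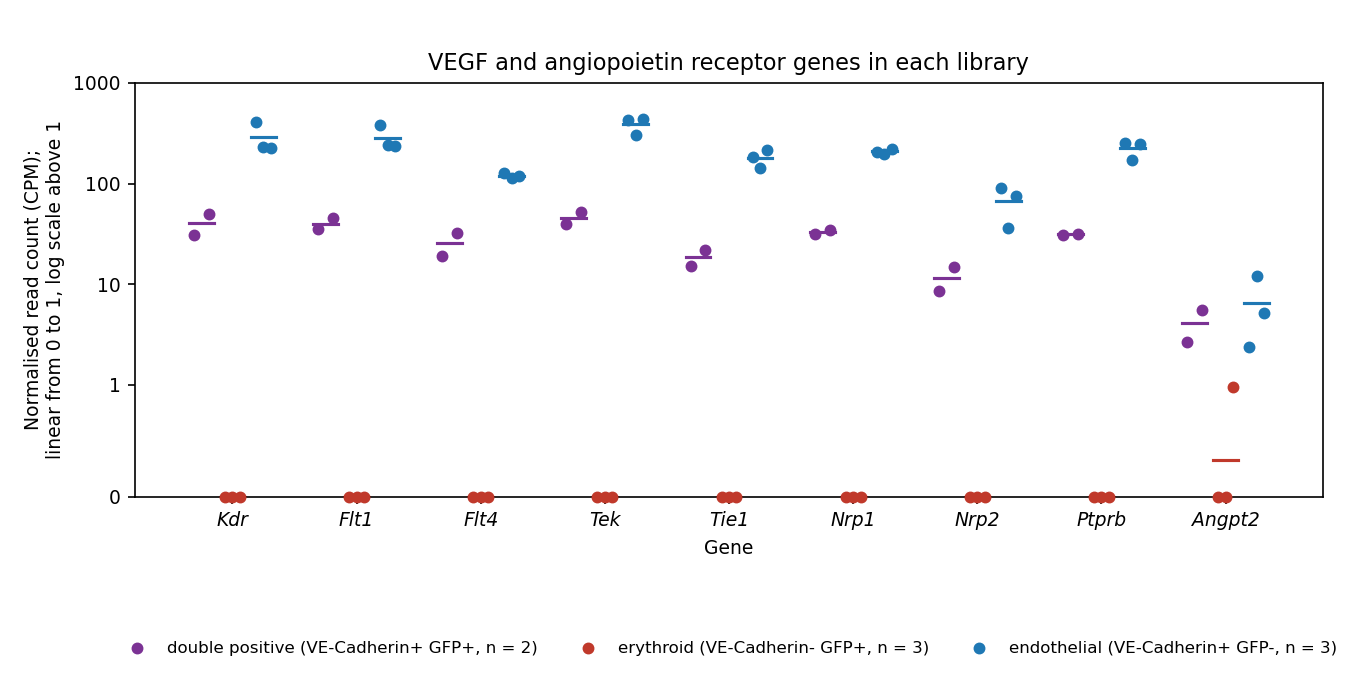
Normalised read count (CPM) of each gene in every library, on an axis that is linear from 0 to 1 and logarithmic above; points are libraries and bars are group means. For each gene except Angpt2, both double positive libraries lie below all 3 endothelial libraries, and all 3 erythroid libraries lie at 0. The share of all genes separated in this way is not given here.

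The 3 VEGF receptors fell in double positive libraries. Kdr (ENSMUSG00000062960.10, chromosome 5, 75932827 to 75978458, minus strand, GRCm38) stood at 30.8 and 49.7 CPM in double positive, at 0 in all 3 erythroid and at 406, 230.2 and 223 CPM in endothelial libraries. Endothelial replicate 1 was the highest, and even the lower endothelial libraries exceeded both double positive ones. Its log2 change was −2.83 (SE 0.39, adjusted p = 0.00351, edgeR), double positive against endothelial. Flt1 (ENSMUSG00000029648.13, chromosome 5, 147561604 to 147726011, minus strand) stood at 35.0 and 45.04 CPM in double positive, at 0 in erythroid and at 379, 244 and 236 CPM in endothelial libraries. Replicate 1 was again the highest, and the groups did not overlap. The log2 change of Flt1 was −2.84 (SE 0.31, adjusted p = 0.00137). Flt4 (ENSMUSG00000020357.3, chromosome 11, 49609263 to 49652739, plus strand) stood at 18.9 and 32.2 CPM in double positive, at 0 in erythroid and at 128, 113 and 118 CPM in endothelial libraries. Its endothelial libraries were close together, while double positive replicate 8 was well above replicate 7. Flt4 kept the largest share of its endothelial level among the 8 genes that fell (21.4%, log2 change −2.22, SE 0.33, adjusted p = 0.00471). Counts were per gene, so membrane and soluble forms of Flt1 were not separated.

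Both Tie receptors fell as well, and by more than the group's median. Tek (ENSMUSG00000006386.15, chromosome 4, 94739289 to 94874976, plus strand) stood at 39.6 and 52.2 CPM in double positive, at 0 in erythroid and at 430.5, 305 and 439 CPM in endothelial libraries. Endothelial replicate 2 was the lowest of its group, still far above both double positive libraries. The log2 change of Tek was −3.09 (SE 0.27, adjusted p = 0.000493). Tie1 (ENSMUSG00000033191.14, chromosome 4, 118471191 to 118490061, minus strand) stood at 15.1 and 21.8 CPM in double positive, at 0 in erythroid and at 183, 141 and 216 CPM in endothelial libraries. Its share of the endothelial level was the smallest of the 9 genes, at 10.2% (log2 change −3.29, SE 0.33, adjusted p = 0.000931).

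Kdr and Flt1 were closest among the 9 genes by a likeness measure, given below, that also reflects level. Tek and Tie1 form the angiopoietin receptor pair. The promoters of these 4 genes are shown. Each sequence is from RefSeq (GRCm38.p6) and runs 5′ to 3′ on the gene's strand, from 250 bases before to 50 bases after its annotated start. The windows are chr5:75978406-75978705 (minus) for Kdr, chr5:147725962-147726261 (minus) for Flt1, chr4:94739039-94739338 (plus) for Tek and chr4:118489800-118490099 (minus) for Tie1. For Tie1 the GENCODE start, at 118490061, differs from the RefSeq start used. Most of the Tie1 window therefore lies inside the gene as GENCODE annotates it. Capitals mark AGGAAG or CGGAAG on either strand, the letters of 2 common binding sites of ETS factors, a family that includes endothelial regulators.
Kdr: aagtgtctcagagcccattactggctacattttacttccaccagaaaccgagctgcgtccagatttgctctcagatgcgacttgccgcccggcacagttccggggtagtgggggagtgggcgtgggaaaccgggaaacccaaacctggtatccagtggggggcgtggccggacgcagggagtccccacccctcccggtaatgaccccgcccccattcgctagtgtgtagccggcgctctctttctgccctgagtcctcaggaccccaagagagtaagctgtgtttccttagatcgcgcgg
Flt1: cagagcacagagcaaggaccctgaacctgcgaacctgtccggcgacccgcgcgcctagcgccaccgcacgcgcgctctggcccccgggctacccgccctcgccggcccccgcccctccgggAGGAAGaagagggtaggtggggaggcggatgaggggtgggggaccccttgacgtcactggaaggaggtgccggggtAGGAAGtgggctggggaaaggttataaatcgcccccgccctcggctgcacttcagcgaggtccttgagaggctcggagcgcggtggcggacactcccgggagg
Tek: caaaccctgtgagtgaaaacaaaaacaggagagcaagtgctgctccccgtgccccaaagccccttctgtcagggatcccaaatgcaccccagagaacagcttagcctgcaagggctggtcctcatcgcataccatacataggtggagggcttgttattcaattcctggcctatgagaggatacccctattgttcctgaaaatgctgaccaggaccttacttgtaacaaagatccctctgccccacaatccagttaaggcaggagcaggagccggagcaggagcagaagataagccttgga
Tie1: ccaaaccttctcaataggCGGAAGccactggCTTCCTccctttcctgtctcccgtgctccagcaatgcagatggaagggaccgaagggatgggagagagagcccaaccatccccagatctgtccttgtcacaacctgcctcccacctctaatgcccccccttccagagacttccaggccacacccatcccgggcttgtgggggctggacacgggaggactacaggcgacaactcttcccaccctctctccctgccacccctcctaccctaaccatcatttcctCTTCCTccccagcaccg

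These letters occurred in 3 of the 7 promoters found for the 9 genes (Flt1, Tie1 and Nrp1), beside 46.5% of 32851 promoters of this length in the RefSeq table. By GENCODE positions, the Nrp1 and Flt4 windows lie inside the gene, as does most of the Tie1 window. These windows therefore hold few or no bases before the GENCODE start. Kdr had none in this window. AGATAA or TGATAA, the letters bound by GATA factors, occurred on either strand in 1 of 7 (Tek), beside 18.6% of all promoters. AACAAT, letters bound by SOX factors, occurred in 1 of 7 (Tek), beside 10.7% of all. A match of letters is a description and not a shown binding site.

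The neuropilins bind VEGFs beside the VEGF receptors and class 3 semaphorins beside plexins. Nrp1 (ENSMUSG00000025810.9, chromosome 8, 128358604 to 128503363, plus strand) stood at 31.5 and 34.4 CPM in double positive, at 0 in erythroid and at 207, 197.5 and 221 CPM in endothelial libraries. Its libraries varied little within either group, and its log2 change was −2.66 (SE 0.22, adjusted p = 0.000378). Nrp2 (ENSMUSG00000025969.15, chromosome 1, 62703285 to 62818695, plus strand) stood at 8.60 and 14.7 CPM in double positive, at 0 in erythroid and at 91.0, 36.5 and 74.6 CPM in endothelial libraries. Endothelial replicate 2 held less than the other two, and the groups did not overlap. Nrp2 fell with a log2 change of −2.53 (SE 0.55, adjusted p = 0.0198). That call was lost without any 1 of 4 libraries. The adjusted p was 0.0641 and 0.0591 without endothelial replicate 1 or 3, and 0.146 and 0.0771 without double positive replicate 7 or 8, with log2 changes of −2.98 to −2.19.

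Ptprb and Angpt2 act on Tek from outside the kinase family. Ptprb (ENSMUSG00000020154.10, chromosome 10, 116275523 to 116389535, plus strand), which removes phosphate from Tek and from the VE-Cadherin complex, stood at 30.8 and 31.8 CPM in double positive, at 0 in erythroid and at 255, 171 and 246 CPM in endothelial libraries. It fell with a log2 change of −2.84 (SE 0.28, adjusted p = 0.000776). Angpt2 (ENSMUSG00000031465.6, chromosome 8, 18690263 to 18741562, minus strand), the ligand that can oppose angiopoietin 1 at Tek, had 14 and 27 reads in double positive, 0, 0 and 3 in erythroid, and 18, 74 and 32 in endothelial libraries. These reads correspond to 2.68 and 5.50 CPM in double positive, 0, 0 and 0.978 CPM in erythroid, and 2.38, 12.1 and 5.17 CPM in endothelial libraries. The double positive and endothelial libraries overlapped, and the difference did not pass (log2 change −0.67, SE 1.31, adjusted p = 0.783). Without endothelial replicate 2, its highest library, the log2 change was 0.11 (adjusted p = 0.977). Angpt2 lies on the opposite strand of Mcph1, which had 70 and 64 reads in double positive, 126, 132 and 134 in erythroid, and 17, 59 and 36 in endothelial libraries. Mcph1 was thus highest in erythroid libraries, where Angpt2 had its fewest reads. Within endothelial libraries both genes were highest in replicate 2 and lowest in replicate 1. Within double positive libraries their order was opposite. The strand setting of the counting is not given in the sources used here, and overlap of the exons of both genes is not shown. Whether Angpt2 counts include Mcph1 reads was not tested, and the Angpt2 level is uncertain. An antisense gene, Gm29083, is annotated across Nrp2 as well and was not analysed here.

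**Figure D2:**
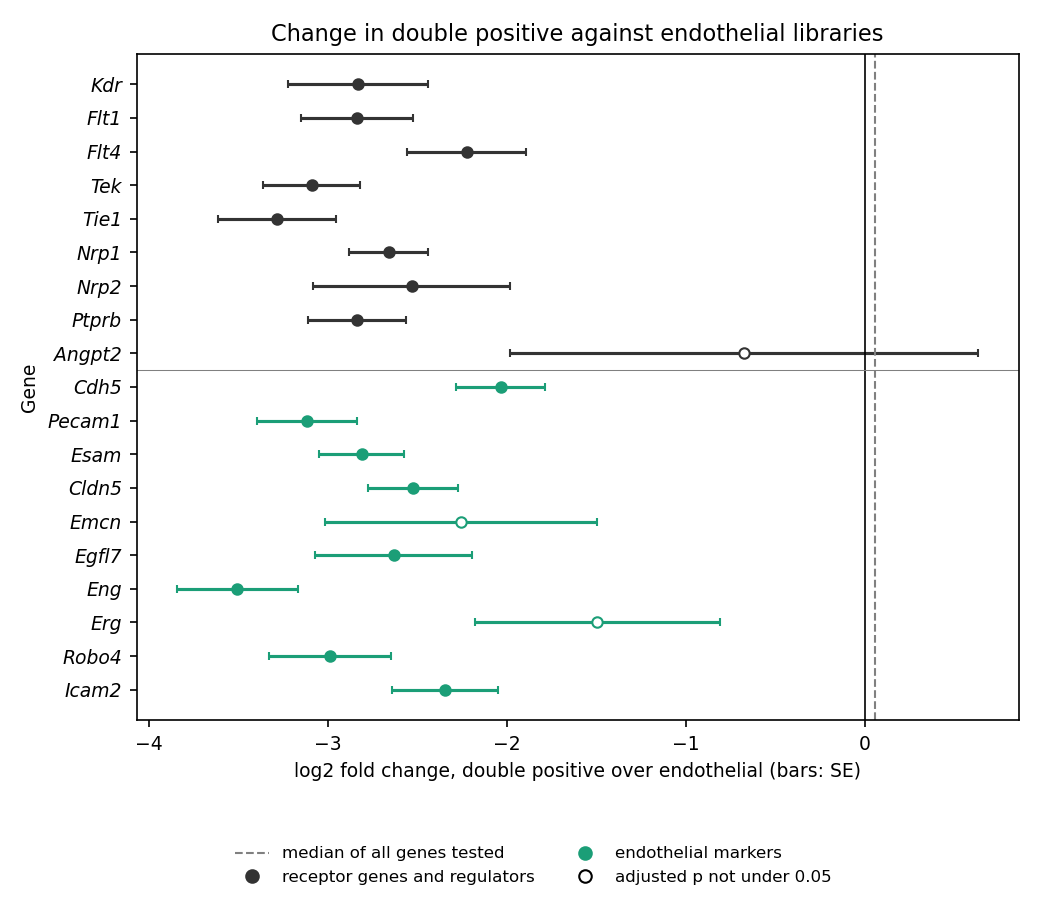
Log2 fold change of double positive over endothelial libraries for the 9 genes and, below the line, for 10 endothelial markers; bars are SE, open points did not pass at an adjusted p of 0.05, and the dashed line is the median of all genes tested. The 8 genes that fell lie between −3.29 and −2.22, and the 10 markers between −3.51 and −1.49, and Angpt2 has a bar that crosses 0.

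The endothelial marker list moved alongside. Of its 10 genes, 8 fell in double positive against endothelial libraries, with a median log2 change of −2.58. Pecam1, a junction protein, had a log2 change of −3.12, and Cdh5 one of −2.03. Macrophage markers were also lower. Of 10, 8 fell, all 10 were at 0 in erythroid libraries, and the list summed to 88.5 and 153 CPM in double positive against 1236, 3068 and 1372 CPM in endothelial replicates 1, 2 and 3. Ptprc, the pan-leukocyte surface protein, was at 0 and 1.22 CPM in double positive and at 42.3, 73.8 and 11.0 CPM in endothelial libraries. Only Mrc1 (66.1 CPM) and Csf1r (22.4 CPM) made up the macrophage sum of double positive replicate 7, where every other marker of that list had no read. Mrc1 was also the largest part of the sum of replicate 8, at 91.5 CPM. Csf1r followed there at 18.9 CPM, and the remaining markers were at 1.02 to 13.9 CPM. Endothelial replicate 2, highest for macrophage markers, was the lowest of its group for Tek, Tie1, Nrp1, Nrp2, Ptprb, Flt4 and the summed endothelial markers. The same 8-gene count was found without that replicate. The part of macrophages, visceral endoderm and erythroid cells in these differences was not tested.

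In erythroid libraries, 8 of the 9 genes had no read in any of 3 libraries. Erythroid libraries detected 8673 to 8746 genes each, against 11744 to 11884 in endothelial libraries. A count of 0 allows up to 0.699, 0.952 and 0.978 CPM in replicates 4, 5 and 6, or 0.285 CPM over the group, at 3 counts. Against that group floor, double positive libraries were at least 40.8-fold higher for Nrp2 and at least 161-fold higher for Tek, the ends of the range over the 8 genes. Each of these 8 genes passed in double positive against erythroid libraries, with adjusted p from 1.40e-05 for Nrp1 to 0.000832 for Nrp2 (edgeR). With 0 reads in erythroid libraries, the 8 genes met the filter on low counts through the other libraries only. These p-values are therefore given as a description. Of all genes tested, 31.5% were higher in double positive than in erythroid libraries, and 42.0% differed in either direction. Angpt2 averaged 14.2-fold higher by its counts, with a 95% exact counting interval of 4.52 to 71.5, and did not pass (adjusted p = 0.0753). It passed without erythroid replicate 6, the only erythroid library with its reads (adjusted p = 0.0212), and over all settings tried its adjusted p ran from 0.0212 to 0.292.

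In erythroid against endothelial libraries, all 9 genes were lower past the test, beside 26.6% of all genes tested, with 41.0% different in either direction. The 8 genes at 0 were at least 236-fold (Nrp2) to at least 1371-fold (Tek) higher in endothelial libraries. Angpt2 was 21.8-fold higher in endothelial libraries by its counts (95% exact counting interval 7.30 to 107; adjusted p = 0.0376). That call was lost without any 1 of 6 libraries. Its log2 change, erythroid against endothelial, was −4.31 with all libraries and −3.52 without endothelial replicate 2, and without erythroid replicate 6 the other 2 erythroid libraries were at 0, so that the size rests on 3 reads. The adjusted p was 0.1002 and 0.0535 without endothelial replicate 2 or 3, 0.0728 and 0.0764 without erythroid replicate 4 or 5, and 0.0747 and 0.0809 without double positive replicate 7 or 8. These genes met the filter on low counts through their endothelial and double positive libraries, so these counts are given as a description. Intervals and floors cover counting error only, since the reads carried no molecular identifiers. The double positive and endothelial comparisons against erythroid share the same 3 erythroid libraries.

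Levels of different genes were ranked only per length, as CPM per kb of annotated exon. In endothelial libraries Tek was the highest, at 83.1 ± 15.98 CPM per kb (SD, n = 3), and its range did not overlap that of the next gene. Tie1 followed at 36.7 ± 7.65 CPM per kb. Kdr came next with a mean of 31.7 CPM per kb and a lowest library at 24.7, and it overlapped Tie1. A middle group of Nrp1 (21.3 ± 1.23), Flt1 (21.2 ± 5.97), Ptprb (16.8 ± 3.46) and Flt4 (14.5 ± 0.93 CPM per kb) came next. Nrp1 did not overlap Kdr, but the highest Flt1 library, at 28.1 CPM per kb, lay above the lowest of Kdr, and each neighbouring pair within the group overlapped. Nrp2 at 5.69 ± 2.36 and Angpt2 at 1.77 ± 1.35 CPM per kb came last and overlapped. In double positive libraries Tek was again first, at 9.73 ± 1.89 CPM per kb (SD, n = 2), without overlap with Kdr at 4.46 ± 1.48. The genes from Kdr through Tie1, Nrp1 and Flt4 to Flt1 (2.96 ± 0.53 CPM per kb) overlapped each with its neighbour. Ptprb followed at 2.35 CPM per kb, below both Flt1 libraries. Nrp2 and Angpt2 were again lowest, at 0.983 ± 0.36 and 1.11 ± 0.54 CPM per kb. With each gene's longest transcript as its length, Tek stayed first and Nrp2 and Angpt2 last in endothelial libraries, while Tek was followed by Nrp1 at 57.3, Kdr at 48.4, Tie1 at 42.6 and Flt1 at 41.5 CPM per kb. Nrp2 was then at 10.02 and Flt4 at 19.1 CPM per kb. The longest Nrp1 transcript had 3645 bases in 4 exons, against 9785 bases of annotated exon, so its level by this length is uncertain.

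**Figure D3:**
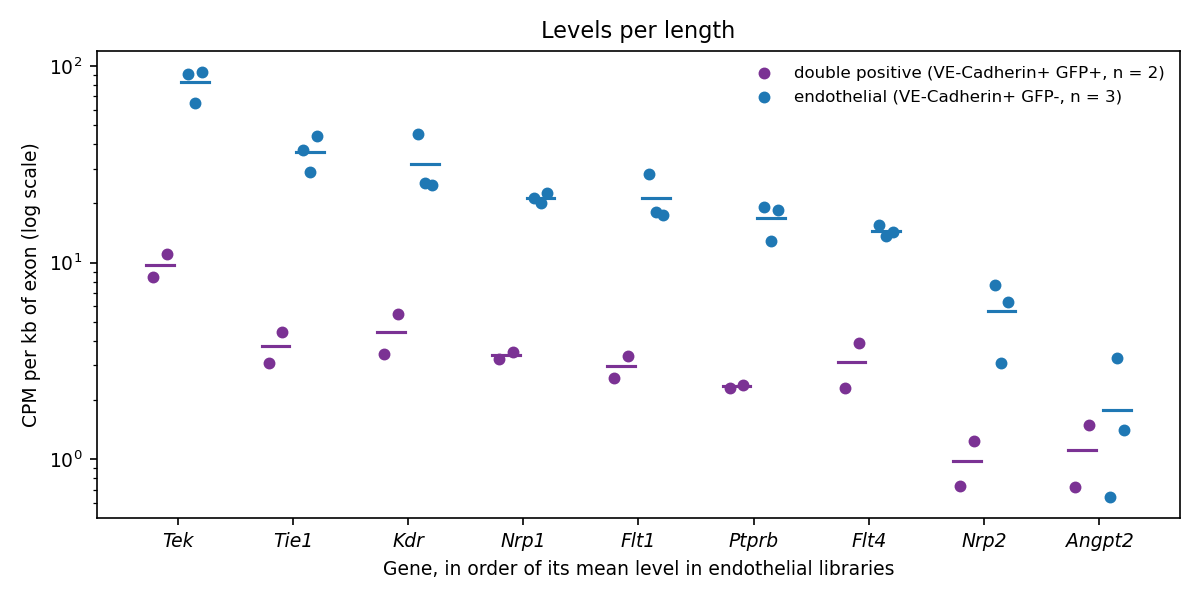
Level per length (CPM per kb of exon, log scale) in double positive and endothelial libraries, genes ordered by their endothelial mean; points are libraries and bars are means. Tek is highest in both populations and Nrp2 and Angpt2 are lowest in both.

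Ratios of related genes within 1 library do not depend on how libraries are scaled, and 6 such ratios were compared between double positive and endothelial libraries. An exact two-sided permutation test of 2 against 3 libraries cannot go below p = 0.1, so none could pass. Reads of Flt1 and Kdr, not corrected for length, stayed close to even. Per kb of annotated exon, Flt1 averaged 21.2 and Kdr 31.7 CPM in endothelial libraries. Flt1 had 1.14 and 0.906 reads per Kdr read in double positive and 0.933, 1.06 and 1.06 in endothelial libraries (exact permutation p = 1.0, adjusted 1.0). Flt4 had 0.615 and 0.647 reads per Kdr read in double positive and 0.315, 0.490 and 0.529 in endothelial libraries, with no overlap (exact permutation p = 0.2, adjusted 0.3). Tie1 had 0.382 and 0.418 reads per Tek read in double positive and 0.426, 0.464 and 0.493 in endothelial libraries (exact permutation p = 0.2, adjusted 0.3). Ptprb had 0.778 and 0.609 reads per Tek read in double positive and 0.592, 0.561 and 0.561 in endothelial libraries (exact permutation p = 0.1, adjusted 0.3). The widest gap was that of Angpt2, a low-count gene. It had 0.0676 and 0.106 reads per Tek read in double positive and 0.00553, 0.0396 and 0.0118 in endothelial libraries, again without overlap (exact permutation p = 0.2, adjusted 0.3). Nrp2 had 0.273 and 0.426 reads per Nrp1 read in double positive and 0.439, 0.185 and 0.337 in endothelial libraries, which overlapped (exact permutation p = 0.9, adjusted 1.0).

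Set against Cdh5, whose protein was used for sorting, 6 of the 9 genes were lower in both double positive libraries than in any endothelial library. This ratio was chosen after the values were seen and was not tested. Cdh5 itself had a smaller log2 change than the median of the endothelial markers. Of the 9 other endothelial markers 7 were lower per Cdh5 read in the same way, among them Pecam1, with 96.2 and 93.8 reads per 100 Cdh5 reads in double positive and 194, 179 and 227 in endothelial libraries. Erg, another of these markers, was higher per Cdh5 read in both double positive libraries than in any endothelial library. Of all other genes tested, 3.77% were lower and 78.5% were higher without overlap. Tek had 86.2 and 93.1 reads per 100 Cdh5 reads in double positive and 184.5, 177 and 199.6 in endothelial libraries. Tie1 had 32.9 and 38.9 in double positive and 78.5, 81.9 and 98.3 in endothelial libraries. Kdr had 67.1 and 88.7 in double positive and 174, 133 and 101 in endothelial libraries. For these genes, and for Flt1, Nrp1 and Ptprb, both double positive libraries were below all endothelial ones. Flt4, with 41.2 and 57.5 reads per 100 Cdh5 reads in double positive and 54.8, 65.3 and 53.6 in endothelial libraries, overlapped, as did Nrp2 and Angpt2.

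**Figure D4:**
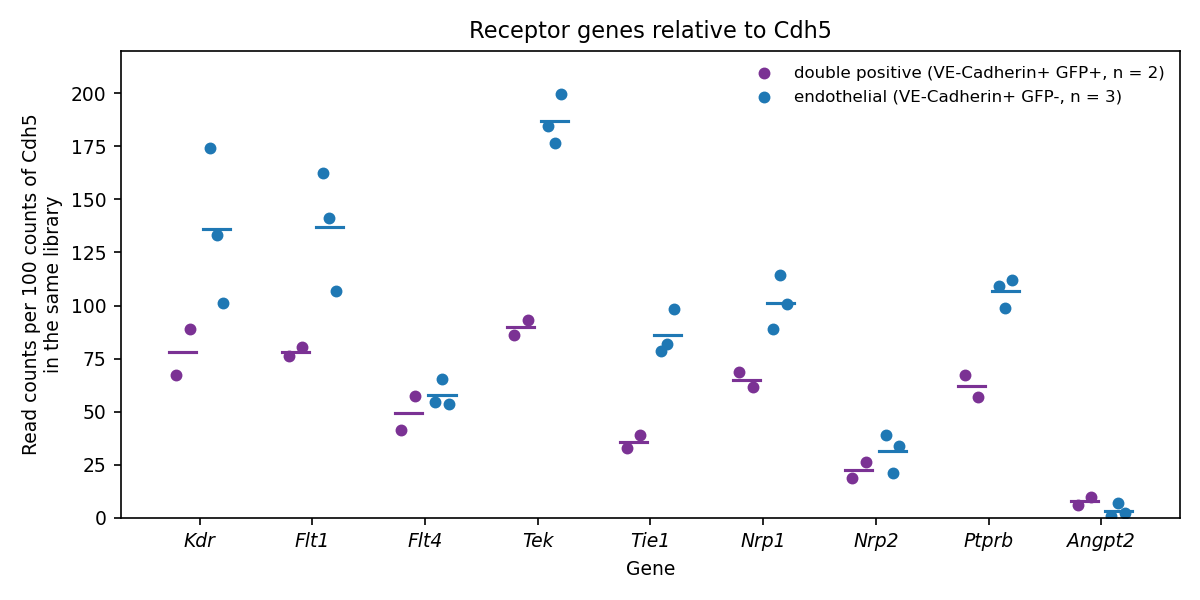
Reads of each gene per 100 reads of Cdh5 in the same library, for double positive and endothelial libraries; points are libraries and bars are means. Tek reads 86.2 and 93.1 in double positive and 177 to 199.6 in endothelial libraries, while Flt4, Nrp2 and Angpt2 overlap between the populations.

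Likeness was measured as the root mean square difference of log2(CPM + 1), with each gene centred on its own mean, over the same 8 libraries. For a gene at 0 in erythroid libraries, centring does not remove its level, so this measure also matches genes of similar CPM. Kdr and Flt1 averaged 286.5 and 286.1 CPM in endothelial libraries, without correction for length. Kdr and Flt1 differed by 0.0958, the smallest value of any pair among the 9 genes, and Nrp1 and Ptprb by 0.144. Among 7243 other genes with at least 10 CPM in endothelial libraries, Tek was closest to Pecam1 (0.0699), followed by Gpr182 (0.184) and Esam (0.194). Pecam1 averaged 48.4 CPM in double positive, 0 in erythroid and 421 CPM in endothelial libraries. Nrp1 and Ptprb shared Adgrf5, an adhesion receptor of endothelial cells, as their closest gene (0.107 and 0.137), and both had Ldb2 among their 3 closest (0.125 and 0.186). Kdr and Flt1 shared Colec12, a scavenger receptor (0.196 and 0.157), and both had the fatty acid transporter gene Cd36 among their 3 closest (0.268 and 0.2097). Flt4 was closest to Rasgrp3 (0.185), Tie1 to Slc9a3r2 (0.219) and Nrp2 to the Notch ligand gene Jag1 (0.149). The nearest gene found for Angpt2 was Caml, at 0.407. Angpt2 averaged 6.54 CPM in endothelial libraries, below the 10 CPM limit of the search. Genes at its own level were therefore not searched.

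Few ligand genes had enough reads to test. Of 10 genes for VEGF and angiopoietin ligands and VEGF-C processing, 5 met the filter on low counts. In double positive against endothelial libraries 0 of 5 passed by edgeR's quasi-likelihood test, with 2 at an unadjusted p under 0.05. DESeq2 called Vegfc alone and limma-voom called Vegfa alone. Of the 5, 4 were higher in double positive than in erythroid libraries, and 4 were lower in erythroid than in endothelial libraries. Counts for this list and those below stand beside these shares of all genes tested. In double positive against endothelial libraries, 6.92% were lower and 14.6% higher. In double positive against erythroid libraries, 31.5% were higher. In erythroid against endothelial libraries, 26.6% were lower and 14.4% higher. Vegfa, the main ligand of Kdr, stood at 17.0 and 7.95 CPM in double positive, 0, 0 and 0.326 CPM in erythroid and 1.72, 1.63 and 3.39 CPM in endothelial libraries. Both double positive libraries lay above all others (log2 change against endothelial 2.46, SE 0.99, adjusted p = 0.117). Vegfc, the ligand of Flt4, stood at 7.46 and 7.95 CPM in double positive, 0 in erythroid and 46.3, 15.6 and 40.1 CPM in endothelial libraries (log2 change −2.14, SE 0.66, adjusted p = 0.0611). Vegfb, a ligand of Flt1, averaged 13.6 ± 0.90 CPM in double positive (SD, n = 2), 0 in erythroid and 5.14 ± 4.11 CPM in endothelial libraries (SD, n = 3; adjusted p = 0.351, edgeR). Angpt1, the activating ligand of Tek, is named after its values were seen and was not tested. It had 2 and 2 reads in double positive, 0 in erythroid and 0, 0 and 3 in endothelial libraries.

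Neuropilins also work with class 3 semaphorins and their plexins. Of 12 such genes 7 were tested, and 2 fell in double positive against endothelial libraries, with a list median of −1.95 on the log2 scale. Plxnd1, an endothelial semaphorin receptor, stood at 21.98 and 31.2 CPM in double positive, 0, 4.13 and 0 CPM in erythroid and 181, 132.5 and 179.8 CPM in endothelial libraries (log2 change −2.63, SE 0.74, adjusted p = 0.0353). Sema3f stood at 0.382 and 0.408 CPM in double positive and 13.2, 4.40 and 9.86 CPM in endothelial libraries (adjusted p = 0.0403). Against erythroid libraries, 3 of the 7 were higher in double positive, and 6 of the 7 were lower in erythroid than in endothelial libraries.

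Adaptors and kinases downstream of the receptors made a list of 20 genes. Of these 19 were tested, and 2 fell and 1 rose in double positive against endothelial libraries, with a median log2 change of −0.50. Of all genes tested, 6.92% fell and 14.6% rose in that comparison. Against erythroid libraries 9 were higher in double positive, and in erythroid against endothelial libraries 9 were lower and 1 higher. Nos3, endothelial nitric oxide synthase, fell to 2.87 and 5.30 CPM in double positive libraries, against 37.7, 43.3 and 65.1 CPM in endothelial libraries (log2 change −3.57, SE 0.58, adjusted p = 0.00667). Dok2, an adaptor that binds Tek and is also made by blood cells, was at 0.382 and 0.204 CPM in double positive and at 20.1, 102.5 and 60.9 CPM in endothelial libraries (adjusted p = 0.00385). Endothelial replicate 2 was its highest library, as it was for the summed macrophage markers. Mapk3, a general signalling kinase, stood at 119.7 and 95.0 CPM in double positive and 56.9, 57.5 and 78.2 CPM in endothelial libraries (adjusted p = 0.0940).

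Of 15 negative regulators and trafficking genes, 4 fell in double positive against endothelial libraries, with a median log2 change of −0.94. In double positive against erythroid libraries 8 of 15 were higher, and in erythroid against endothelial libraries 10 were lower. The 4 that fell were Gipc1, which binds Nrp1 inside the cell (−1.71, adjusted p = 0.0158), Ephb4, a venous receptor kinase (−2.03, adjusted p = 0.0196), and the phosphatases Ptpn1 (−1.36, adjusted p = 0.0238) and Ptpn6 (−2.89, adjusted p = 0.0363). Ptpn6, a phosphatase of blood cells, stood at 15.9 and 8.56 CPM in double positive and 39.9, 174 and 58.7 CPM in endothelial libraries, highest in the replicate with most macrophage marker reads. Of 15 genes of the VEGF and FOXO1 response 13 were tested, and 3 fell in double positive against endothelial libraries, with a median log2 change of −1.32. In double positive against erythroid libraries 11 of 13 were higher, and in erythroid against endothelial libraries 11 were lower and 1 higher. Aplnr, the apelin receptor, stood at 21.2 and 35.7 CPM in double positive and 269, 184 and 262 CPM in endothelial libraries (log2 change −3.07, SE 0.34, adjusted p = 0.00140). Klf2, a flow-responsive factor, had a log2 change of −2.01 (adjusted p = 0.0133), and Dll4, a VEGF-induced Notch ligand, one of −3.20 (adjusted p = 0.0463). Of 5 related receptor kinases 2 were tested, and both were higher in double positive than in erythroid libraries. Csf1r, the macrophage growth factor receptor, fell to 22.4 and 18.9 CPM in double positive, against 94.8, 488 and 172.5 CPM in endothelial libraries (adjusted p = 0.0166). Kit, the stem cell factor receptor, stood at 2.87 and 5.10 CPM in double positive and 28.4, 11.1 and 59.1 CPM in endothelial libraries (adjusted p = 0.0528).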

How the data were processed

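The authors deposited 1 table of raw read counts per gene symbol for the 8 libraries, with no scaling. Per the submitters' processing notes, FastQC, HTSeq and the mm10 build were used. The sources used here name no version, aligner, annotation or strand setting. Per the labels' protocols, polyadenylated RNA was amplified with 14 PCR cycles by Smart-seq2.

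The genes and gene lists were chosen with earlier results of these data known. Genes were kept by filterByExpr at a minimum count of 10, TMM factors were computed, and edgeR 4.0.16 (robust quasi-likelihood, R 4.3.3) fitted the 3 populations together. Named genes outside the 9 were, per list, the up to 4 with the smallest adjusted p in double positive against endothelial libraries. Cdh5, Pecam1, Ptprc, Kit, Gata1 and Klf1 were read whatever their values, and of the genes most like each of the 9 up to 3 are named. Of the genes this naming covers, 1 is not reported here. The list genes numbered 135, 1 of them under an older symbol (Figf for Vegfd). No 2 libraries of a population held identical counts. Positions and exon lengths are from GENCODE M21 (GRCm38). Alternatives used limma 3.58.1, DESeq2 1.42.0, other scalings, other filters, only the populations compared, and each library left out. Ratios used python 3.11.15 with 1 count added in the tests. The raw reads were not used here.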

Additional observations from a re-analysis of the deposited data

How the results depend on the processing

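The number of the 9 genes past the test kept within 1.5 times its value under every alternative run, at 7 or 8 in double positive against endothelial, 8 or 9 in double positive against erythroid, and 8 or 9 in erythroid against endothelial libraries. Library size alone moved the median of all genes in double positive against endothelial libraries to −0.57 on the log2 scale, and the median of the 9 genes to −3.48, so their gap to all genes was −2.91, against −2.89 with TMM. Calls depended on single libraries for Nrp2 and Angpt2, as given above. Angpt2 changed sign in double positive against endothelial libraries without endothelial replicate 2, and its log2 change ran from −1.29 to 0.11 with 1 library left out. It passed in double positive against erythroid libraries with library size alone, DESeq2 and limma-voom (log2 changes 4.44, 3.79 and 3.82). With a minimum count of 50 it was not tested. The log2 ratio of Flt1 to Kdr, double positive minus endothelial, was −0.000528 with 5 counts added, and −0.16 to 0.16 with 1 library left out. That of Nrp2 to Nrp1 was −0.16 to 0.51 with 1 library left out. The other 4 ratios kept their sign in every setting run. Where a left-out library leaves 1 double positive library, that library is assumed to vary like the others. No paired analysis was possible because the populations share no replicate number. The cause of these shifts was not tested. With the longest transcript as length, 5 of the 9 endothelial levels per kb moved by more than 1 SD, by construction in proportion to the length used.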
